A study of Homo sapiens with 2 samples.

Results

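The BCL2 family decides whether a stressed cell keeps its mitochondria intact. Survival members such as BCL2, BCL2L1 (BCL-XL), BCL2L2 (BCL-W), MCL1 and BCL2A1 (A1) hold the effectors BAK1 and BAX in check, and BH3-only proteins such as BID, BIK, BCL2L11 (BIM) and PMAIP1 (NOXA) are induced or activated by damage and release that check, after which cytochrome c leaves the mitochondria and caspases are activated. Platinum adducts and microtubule poisons both kill tumour cells largely through this route, and the family is a standard place to look in drug resistant lines. Expression of 10 of these genes, chosen by gene name, was examined at all of their 19 probes on Agilent whole human genome arrays, out of 30238 gene names and 41000 probes on the array.

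A2780 is a human ovarian carcinoma line. The resistant lines were A2780CBN, for which the labels give carboplatin at 22.2 µM, and A2780CBNDXL, selected with carboplatin and docetaxel together. For the latter the labels give 8.02 µM as the tolerated dose, a value that the study's text uses for a sensitivity measure instead, so the doses of the lines are not compared. Both were raised as populations under slowly rising doses, not as picked clones, and each was hybridized against A2780CC, parental A2780 cells kept in culture beside it without drug. Each line was 1 pool of RNA from 3 isolations, read on 4 arrays, so that each of 2 slides carried a forward array (line in Cy5) and a reverse array (line in Cy3) of each line. The 4 arrays thus repeat a single sample, their SD covers only labelling and hybridization, and no test between cultures was possible. The sign of every ratio rests on the dye labels of the forward arrays. For the reverse arrays those labels repeat the forward dyes, against their name, and the ratios were turned as the name says.

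A gene was called changed when its mean log2 ratio of line over control reached 1 in size (2-fold), all 4 arrays had the same sign, and one channel was well above background on all 4. Per channel, 59.8 to 67.5% of spots stood well above background. Of 13 cell type markers, EPCAM, KRT8, KRT18, VIM and PAX8 were above background in the line channel on every array, while CDH1, WT1, MUC16, PTPRC (leukocytes) and PECAM1 (endothelium) were not above it on any array. The fibroblast marker DCN was above background in both lines and both controls, with log2 ratios of 2.21 ± 0.46 for A2780CBN and 3.62 ± 0.29 for A2780CBNDXL (SD, 4 arrays). LUM, also of fibroblasts, gave 2.51 ± 0.18 in A2780CBNDXL and was at least 2.21-fold higher in A2780CBN, where its control was not above background. The epithelial marker EPCAM was higher in both lines, at 2.07 ± 0.30 and 1.67 ± 0.24, and KRT18 (1.05 ± 0.16) and VIM (1.08 ± 0.67) were higher in A2780CBN. The epithelial markers KRT8 and KRT19 went the other way there, at -0.37 ± 0.17 and -0.48 ± 0.51. Both were below 0 on all 4 arrays and under the limit. In A2780CBNDXL KRT8 gave 0.18 ± 0.07 and KRT19 did not pass. Of the markers that passed, 5 of 8 were called in A2780CBN and 3 of 7 in A2780CBNDXL, all higher. Over all genes tested the shares called were 12.6% and 16.9% in that order. The part of these markers in the results was not tested. For RNA of whole cultures, fewer cells of a kind and less RNA per cell cannot be told apart.

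The 5 probes on which the results turn are shown by their first 30 of 60 bases, 5′ to 3′ as the array files give them. They are shown because the pair for BCL2 is annotated to different transcripts of the gene and gives different answers. Positions are on NCBI36, the build of the files.
BCL2, bcl-2-beta mRNA, A_23_P208132: atcagagttgttgcttcccggcgtccctac
BCL2, transcript variant alpha, A_23_P352266: tggctgatattctgcaacactgtacacata
PMAIP1, A_23_P207999: ttagagaatcgttctagtgtttttgccgaa
BID, A_24_P187948: gaagacaggctggaagatagctgtgacttc
BID, A_23_P154929: aatctgcacatctgtaaatctacacacggt
The beta-form probe of BCL2 is annotated at chr18:59136115-59136150 on the minus strand and the alpha-form probe at chr18:58941703-58941762 on the same strand, from base 6288 of its transcript. The PMAIP1 probe lies at chr18:55721258-55721317 on the plus strand, and the BID probes at chr22:16598182-16598241 and chr22:16598038-16598097 on the minus strand, both shared by the 3 RefSeq variants of BID that the files list. The GC content of the 19 probes ran from 35.0 to 56.7%, and their median of 45.0% lay beside 41.7% over all probes.

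In A2780CBN no member was called, and in A2780CBNDXL PMAIP1 rose and BID fell. With each gene read at its brightest probe, 0 of the 7 members that passed the filter were called in A2780CBN, where the background over all 17951 genes tested was 12.6%. In A2780CBNDXL 2 of 9 were called, against 16.9% of 17116 genes, 1 higher (background 7.70%) and 1 lower (background 9.20%). The median log2 ratio of the members that passed was -0.10 in A2780CBN and 0.24 in A2780CBNDXL, beside -0.06 and 0.04 over all genes tested. In A2780CBN that median is the value of the bright BCL2A1 probe, whose signal cannot be assigned to BCL2A1 alone. The same probe counts among the members that passed in both lines. BIK passed in neither line. PMAIP1 did not pass in A2780CBN because its probe was dim there, nor BCL2L2 because its spot was marked as an outlier on array 4. At the level of probes 0 of 11 were called in A2780CBN (background 12.1%) and 4 of 13 in A2780CBNDXL (background 16.4%), the other call beside PMAIP1 and both BID probes being the alpha-form probe of BCL2.

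**Figure D1:**
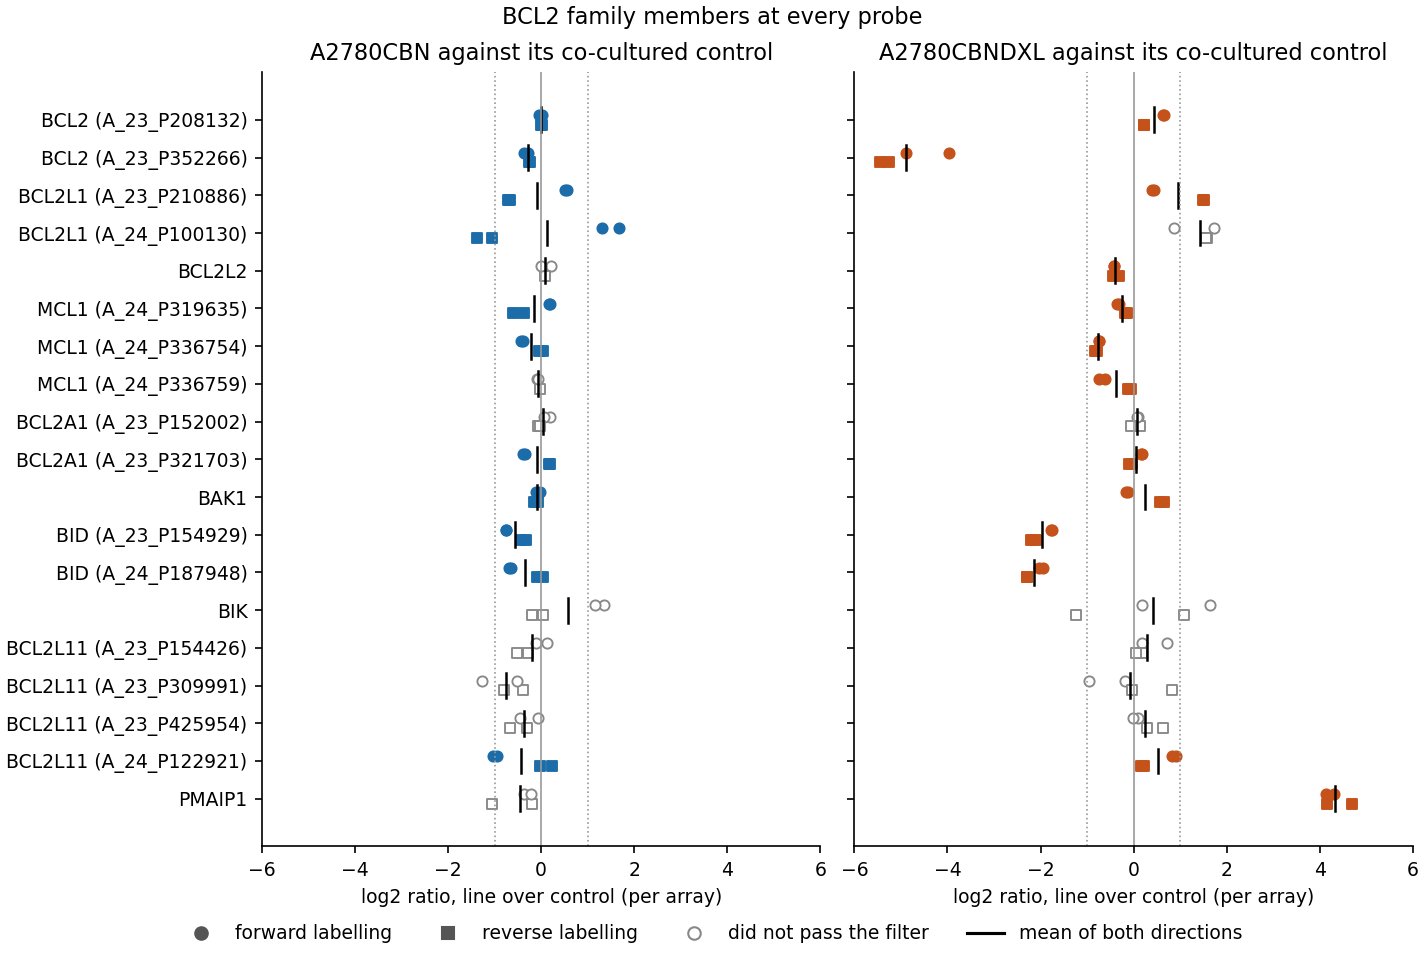
Log2 ratio of resistant line over co-cultured control (x axis) at each of the 19 member probes (y axis), with A2780CBN on the left and A2780CBNDXL on the right. Each point is 1 array, black ticks are the mean of both labelling directions, open points are probes that did not pass the filter and dotted lines mark the 2-fold limit. In A2780CBNDXL PMAIP1 lies above 4, both BID probes near -2 and the alpha-form probe of BCL2 between -3.97 and -5.44.

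Of the BH3-only members, PMAIP1 is given first. It encodes NOXA, which binds and neutralizes MCL1 and A1 and is induced by p53 and by stress signalling. In A2780CBNDXL its signal was 318, 475, 317 and 366 on arrays 1 to 4, and in the control channel of the same arrays 18.5, 26.7, 16.4 and 14.6. The channels did not overlap, and the control was well above background on array 2 alone. The log2 ratios were 4.13, 4.15, 4.31 and 4.70, with a mean of 4.32 ± 0.26, or 20.0-fold. The probe is printed 10 times on each array, and the SD between its spots was 0.11 to 0.38 per array. In A2780CBN both channels stayed near background on every array, with 5.67 to 7.19 in the line and 7.19 to 12 in the control, so no ratio is given there. With loess after normexp correction (offset 50) the probe gave a log2 ratio of 1.19 in A2780CBNDXL, still past the limit, and background-subtracted signals centred on the median gave 4.31.

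BID links the death receptors to the mitochondria, since caspase-8 cuts it into the active tBID. It fell in A2780CBNDXL at both probes. The brighter probe gave 2107, 2118, 2878 and 2580 in the line and 8558, 10287, 11069 and 12533 in the control. The dimmer one gave 281, 304, 306 and 219 in the line and 962, 1296, 1039 and 1014 in the control. All 8 line values lay below all control values of the same probe. The log2 ratio was -2.13 ± 0.17 at the brighter and -1.96 ± 0.23 at the dimmer probe, or 4.38-fold and 3.89-fold lower. In A2780CBN the same probes gave -0.35 ± 0.37 and -0.57 ± 0.22. There the dimmer probe was lower than its control on all 4 arrays and the brighter one on 3, and neither reached the limit. All 10 alternatives tried left BID between -1.86 and -2.20 in A2780CBNDXL.

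BCL2L11 (BIM), the BH3-only protein that binds every survival member, had 1 bright and 3 dim probes. The bright one, at chr2:111642363-111642422 on the plus strand, gave 0.92, 0.22, 0.82 and 0.15 in A2780CBNDXL, a mean of 0.53 ± 0.40. In A2780CBN it gave -0.95, -0.03, -1.03 and 0.24, a mean of -0.44 ± 0.65. In both lines the forward arrays carried most of the value. The dim probes did not pass in either line, and 2 of them overlap each other in sequence. BIK, a BH3-only protein of the endoplasmic reticulum, did not rise well above background in either channel on any array, with signals of 6.72 to 25.2, so its level can only be said to lie near the detection limit.

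Among the survival genes, BCL2 itself read differently at its probes. The alpha-form probe, printed 10 times on each array, gave 11.1, 8.32, 6.0 and 6.69 in A2780CBNDXL, not well above background on any array. In the control channel of those arrays it gave 181, 349, 171 and 246, all well above background. The difference was at least 10.9-fold lower in A2780CBNDXL, computed from the control mean over the lowest signal well above background, or the probe's own where higher, after scaling between arrays. The measured log2 ratios were -3.97, -5.44, -4.88 and -5.26. In A2780CBN the same probe was bright in both channels, with 326, 268, 229 and 231 in the line and 419, 323, 279 and 275 in the control, and a log2 ratio of -0.29 ± 0.05.

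The beta-form probe, the brighter of the pair and the one that stands for the gene, did not share that loss. In A2780CBNDXL it gave 3106, 1967, 2477 and 2303 in the line and 2006, 1674, 1578 and 1965 in the control, a log2 ratio of 0.44 ± 0.24 that was above 0 on all 4 arrays and under the limit. In A2780CBN its ratio was -0.01 ± 0.04. That BCL2 was not called in A2780CBNDXL thus rests on the choice of the brighter probe. Over the mean of both probes the gene was called lower at -2.23. With any probe of a gene allowed 3 of 9 members were called in place of 2. Over all genes that rule called 3229 of 17478 in place of 2893 of 17116. With normexp, an offset of 50 and loess the alpha-form probe gave -0.88, which is under the limit. The files place 36 bases of the beta-form probe on the genome, and which transcripts carry it in these cells was not tested.

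**Figure D2:**
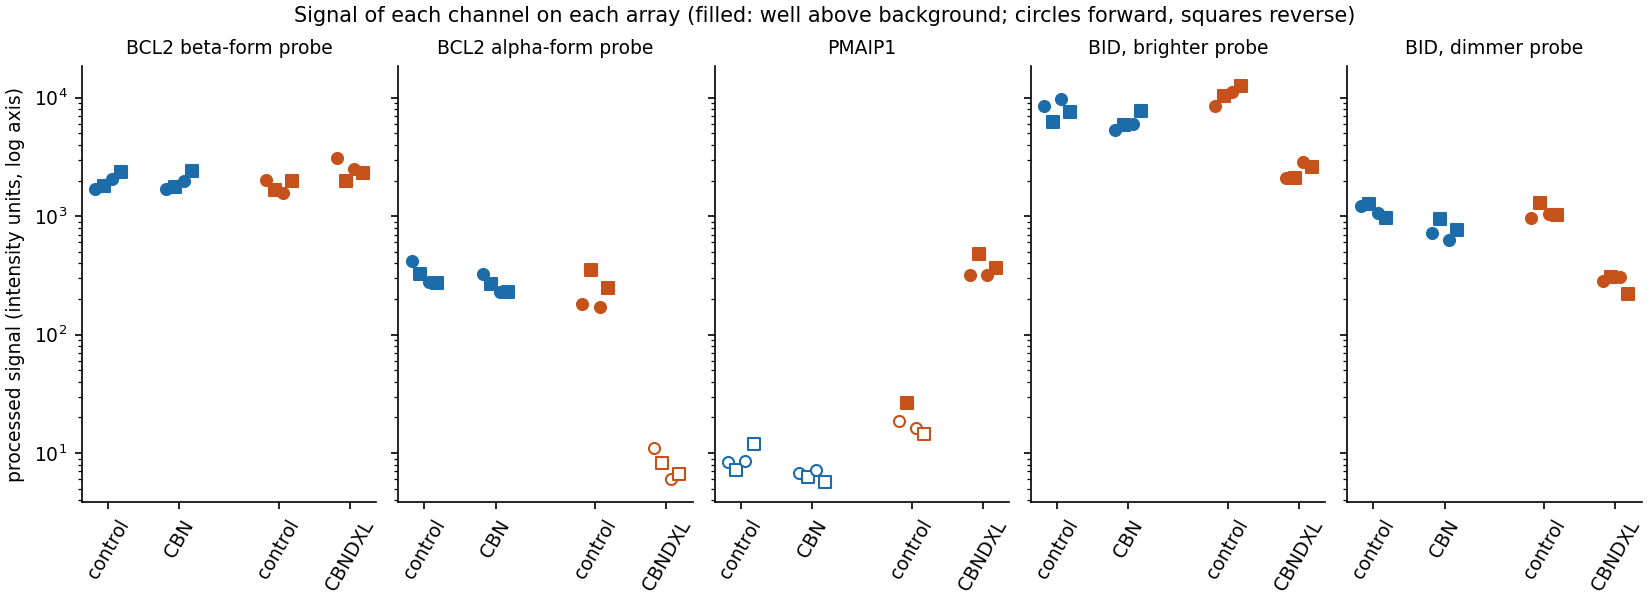
Processed signal (y axis, log scale, intensity units) of the control and the line channel on each array for the probes of BCL2, PMAIP1 and BID, with A2780CBN and its control in blue and A2780CBNDXL and its control in orange. Circles are forward and squares reverse arrays, and open symbols are not well above background. The alpha-form probe of BCL2 drops to 6.0 to 11.1 in A2780CBNDXL, the beta-form probe stays between 1967 and 3106, and PMAIP1 rises to 317 to 475 there.

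BCL2L1 encodes BCL-XL, which guards BAX and BAK1 at the outer mitochondrial membrane. At the probe printed 10 times, shared by both variants the files list, its signal in A2780CBNDXL was 353, 480, 378 and 425 in the line and 260, 171, 289 and 150 in the control. The channels did not overlap. The log2 ratios were 0.43, 1.49, 0.39 and 1.5, with a mean of 0.95 ± 0.63, just under the 2-fold limit. In A2780CBN they were 0.55, -0.72, 0.51 and -0.66, so that the sign followed the labelling direction and the mean was -0.08 ± 0.71. A second probe, specific in the files to variant 2, gave 1.72, 1.58, 0.87 and 1.57 in A2780CBNDXL but was below background in both channels on array 1 and did not pass. In A2780CBN it gave 1.30, -1.06, 1.66 and -1.38. With a limit of 1.5-fold BCL2L1 was called higher in A2780CBNDXL and MCL1 lower.

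The SD between the 10 spots of the BCL2L1 probe was 0.06 to 0.17 within an array, far less than the gap between labelling directions. That gap, forward minus reverse, was 1.22 in A2780CBN and -1.09 in A2780CBNDXL. Of the member probes that passed, 3 of 11 had a gap of 1 or more in size in A2780CBN (both BCL2L1 probes and the bright BCL2L11 probe) and 1 of 13 in A2780CBNDXL (BCL2L1). Over all genes tested, counted at the brightest probe of each and not by probe, the shares were 7.31% and 3.90%. The reported means hold both directions equally. With a dye term in limma the adjusted p for BCL2L1, which measures array error only, was 0.0673 in A2780CBN and 4.91e-05 in A2780CBNDXL.

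**Figure D3:**
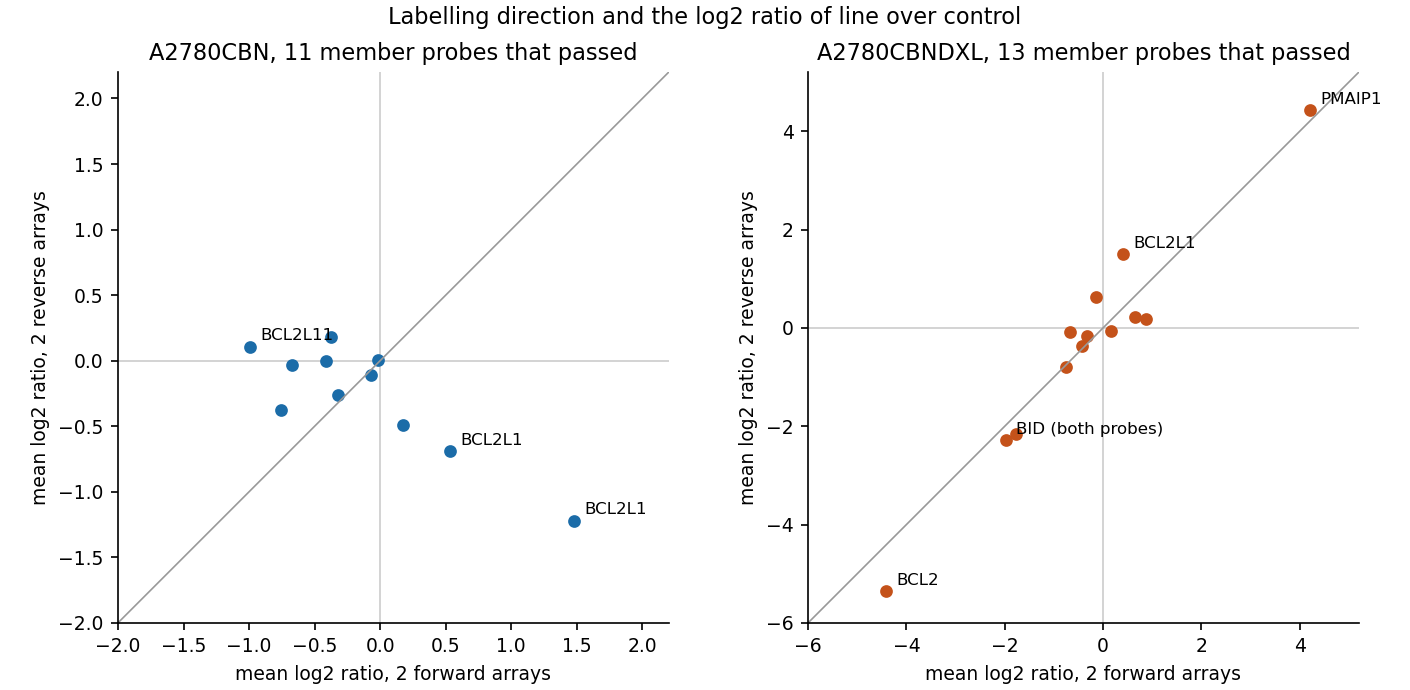
Mean log2 ratio of the 2 forward arrays (x axis) against that of the 2 reverse arrays (y axis) for each member probe that passed the filter, with the line of equality in grey. In A2780CBN the BCL2L1 probes lie far from the line, in the quadrant of opposite signs, while in A2780CBNDXL PMAIP1 and BID lie near it. There the alpha-form probe of BCL2 has a forward minus reverse gap of 0.93, with the same sign in both directions.

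MCL1, a short-lived survival protein and the main partner of NOXA, was measured by 3 probes. The brightest, at chr1:148813852-148813911 on the minus strand, gave log2 ratios of -0.74, -0.79, -0.75 and -0.83 in A2780CBNDXL. The mean was -0.78 ± 0.04, or 1.71-fold lower, and line and control did not overlap. A second probe of both variants gave -0.39 ± 0.35, and the probe of variant 1 alone gave -0.25 ± 0.10, so that all 3 were below 0 on every array and differed in size. In A2780CBN the brightest probe gave -0.21 ± 0.24.

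BCL2L2 (BCL-W) was lower than its control on every array of A2780CBNDXL, with log2 ratios of -0.43, -0.45, -0.41 and -0.31 and a mean of -0.40 ± 0.06, under the limit. In A2780CBN it gave 0.21, 0.08 and -0.01 on the 3 arrays with a usable spot. BCL2A1 had 1 dim and 1 bright probe. The dim one read 4.51 to 7.21 throughout, never well above background. The bright one gave -0.10 ± 0.32 in A2780CBN and 0.05 ± 0.14 in A2780CBNDXL, but the files list it for 2 further RefSeq transcripts beside those of BCL2A1, so its signal cannot be assigned to BCL2A1 alone. BAK1, the effector that forms pores in the outer membrane, gave -0.09 ± 0.06 in A2780CBN and 0.24 ± 0.44 in A2780CBNDXL, where 2 arrays were above and 2 below 0.

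The lines were then set against each other on arrays matched for slide and labelling direction. Of the 7 members that passed in both lines, BID was the 1 that differed by the 2-fold rule, against 16.6% of 16131 genes and 10.5% in the direction of lower in A2780CBNDXL. Its difference of log2 ratios, A2780CBNDXL minus A2780CBN, was -1.78 ± 0.54 (SD, 4 pairs of arrays) at the brighter probe, ranging from -2.31 to -1.25, and -1.39 ± 0.45 at the dimmer probe. The alpha-form probe of BCL2 differed by -4.60 ± 0.70 and was at least 13.2-fold lower in the line channel of A2780CBNDXL than in that of A2780CBN. PMAIP1, with no measured ratio in A2780CBN, was at least 15.4-fold higher in the line channel. BCL2L1 and BCL2L11 differed by 1.04 ± 1.33 and 0.97 ± 1.04, less than or near their spread, and neither kept 1 sign over the pairs.

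Each line had a control of its own, and these also differed. Between the control channels 3.40% of 15652 genes passed the same rule. After scaling between arrays, the control of A2780CBNDXL minus that of A2780CBN was 0.27 ± 0.11 for BID at the brighter probe and -0.58 ± 0.51 for the alpha-form probe of BCL2. The line channels differed by -1.5 ± 0.44 and -5.18 ± 0.30 in that order. For PMAIP1 the controls differed by 0.94 ± 0.65, and of those 8 control signals 1 was well above background. With the control of the other line in place of its own, the log2 ratio in A2780CBNDXL was -1.86 for BID and 5.26 for PMAIP1.

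The rest of the death pathway was read from 2 lists. Of 19 other BCL2 family genes 16 passed in A2780CBN, of which 2 fell, and 15 passed in A2780CBNDXL, of which 1 rose. The shares called, 12.5% and 6.67%, lay at or below those of all genes, 12.6% and 16.9%. BMF, a BH3-only protein held by the cytoskeleton, rose in A2780CBNDXL, with log2 ratios of 2.17, 2.60, 1.86 and 2.01 and a mean of 2.16 ± 0.32, or 4.46-fold. In A2780CBN it gave -0.27 ± 0.13. BNIP3, a mitophagy receptor induced by low oxygen, fell in A2780CBN, with a log2 ratio of -1.48 ± 0.07. In A2780CBNDXL it gave -1.90 ± 0.18 on 3 arrays and was not counted, since its spot was marked on array 3. BCL2L15 fell in A2780CBN at -1.56 ± 0.38, with a dim line channel that was above background on 2 of 4 arrays. The dimmest probe of BCLAF1, not counted, was past the limit in A2780CBN at -1.42 ± 0.18, while the brightest gave -0.29 ± 0.15. In A2780CBNDXL that dimmest probe gave -1.14 ± 0.37, below 0 on all 4 arrays, but did not pass the filter. The brightest gave -0.18 ± 0.53 there. The effector BAX gave 0.36 ± 0.40 and 0.84 ± 0.32 in the lines in that order, and BBC3 (PUMA) -0.08 ± 0.21 and 0.41 ± 0.13, all under the limit. The dimmer probes of BBC3 gave 0.97 and 0.64 in A2780CBN and 0.79 and 1.00 in A2780CBNDXL, the last just under the limit, and were not called.

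Downstream, 24 caspase, inhibitor and mitochondrial genes were listed. At the brightest probe of each, all 24 passed in A2780CBN, of which 2 rose and 0 fell. In A2780CBNDXL 20 passed, of which 0 rose and 2 fell. The dimmer probe of CFLAR, not counted there, was past the limit in A2780CBNDXL at 1.18 ± 0.46, while the brighter one gave -0.34 ± 0.05. BIRC3 (cIAP2), an inhibitor of apoptosis that keeps caspase-8 complexes in check, was called in both lines in opposite directions. Its line signal in A2780CBN was 205 to 293 against a control of 8.0 to 16.3 that was not above background, at least 10.6-fold higher. In A2780CBNDXL it was 4.78 to 6.39 against 32.0 to 69.8, at least 2.23-fold lower. BIRC7 (livin) rose in A2780CBN at 1.42 ± 0.70 from a dim level. In A2780CBNDXL it gave 1.38 ± 0.60, above 0 on all 4 arrays, but its line channel was above background on 3 and it did not pass. CYCS, which encodes cytochrome c, fell in A2780CBNDXL at -1.32 ± 0.13, and another bright probe gave -1.27 ± 0.39 while 2 dimmer ones gave -0.09 ± 0.09 and -0.18 ± 0.17. In A2780CBN its brightest probe gave -0.79 ± 0.18, and the dimmest was past the limit at -1.14 ± 0.14. The share called was 8.33% in A2780CBN and 10% in A2780CBNDXL, against 12.6% and 16.9% of all genes.

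**Figure D4:**
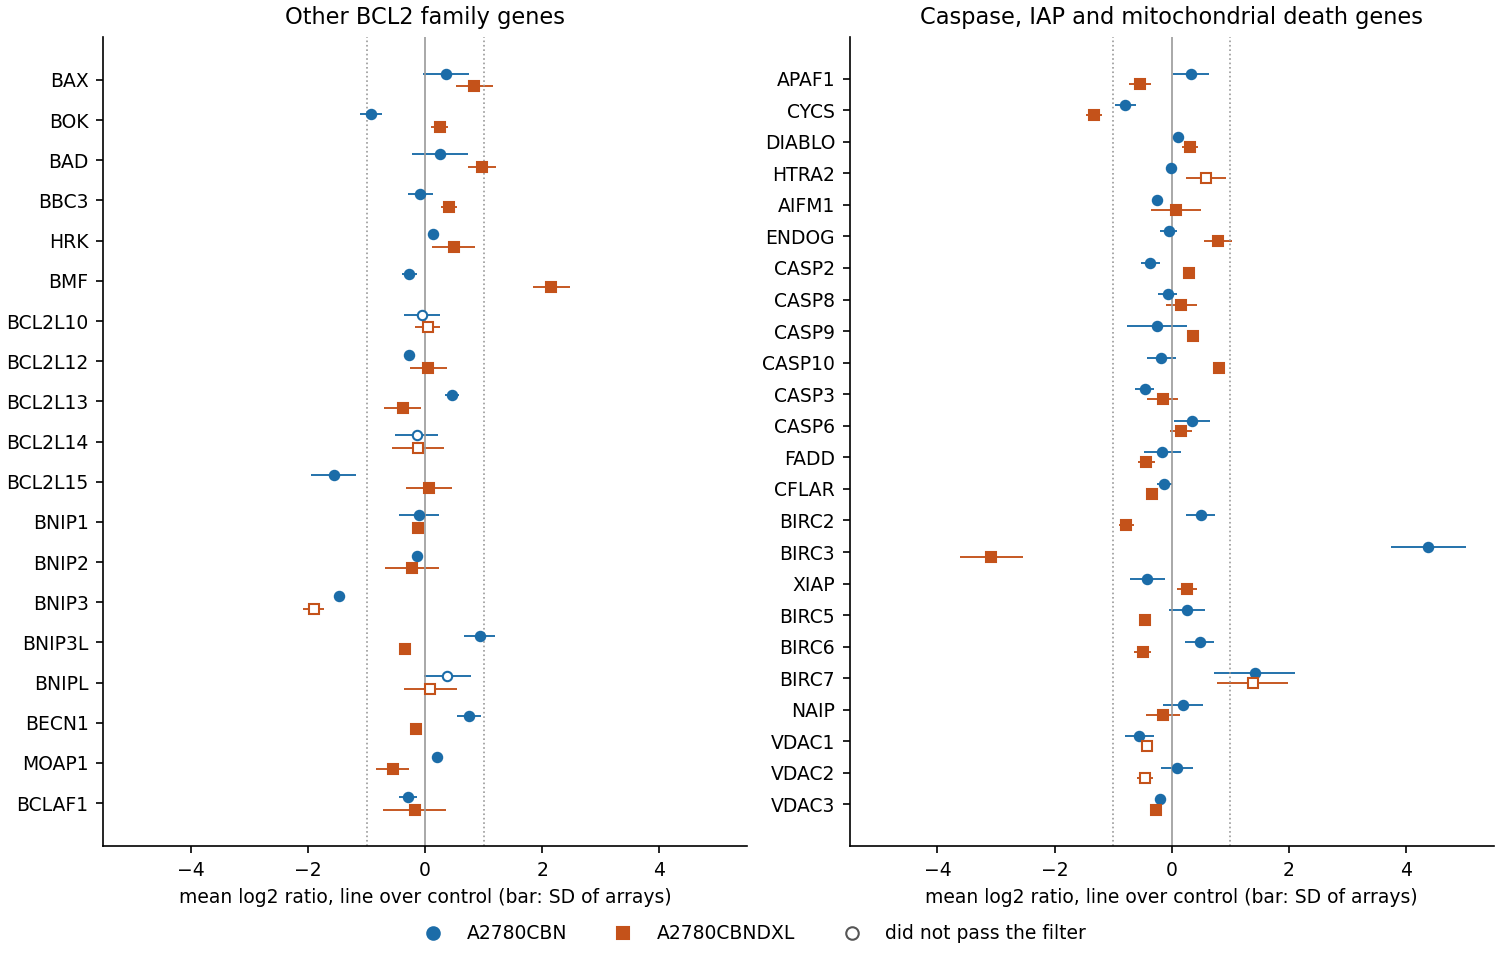
Mean log2 ratio of line over control (x axis, bars are the SD of the arrays) for the other BCL2 family genes on the left and for caspase, inhibitor and mitochondrial death genes on the right (y axis). Circles are A2780CBN, squares A2780CBNDXL, open symbols did not pass the filter and dotted lines mark the 2-fold limit. BIRC3 lies on opposite sides of 0 in the lines, and BMF lies at 2.16 in A2780CBNDXL and -0.27 in A2780CBN.

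Patterns most like those of the members with the largest ratios were found by the Euclidean distance of log2 ratios over the 8 arrays among 17627 genes. Nearest to the alpha-form probe of BCL2 were NUDT11 (distance 0.96), ASNS (asparagine synthetase, 1.11) and CLDN17 (1.21), with log2 ratios in A2780CBNDXL of -4.63 ± 0.47, -4.67 ± 0.24 and -5.14 ± 0.28. Nearest to PMAIP1 were HOXD9 (0.90), TIMP3 (1.36) and MUC19 (1.36), with 4.20 ± 0.07, 4.79 ± 0.39 and 4.89 ± 0.31. In A2780CBN all 6 gave -0.48 to -0.13, MUC19 from signals below background. These values describe a choice by likeness and are no test.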

How the data were processed

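The authors pooled RNA of 3 isolations per line, hybridized it with co-cultured control RNA to 2-colour arrays and deposited Feature Extraction output (slide 1, version 10.7.1.1; slide 2, version 10.7.3.1). In the deposited processed intensity of each channel the background had been subtracted and the dyes normalized within the array, with a surrogate in place of signals near background. Raw mean, background and background-subtracted intensities served only for alternatives. Control spots and spots marked as outliers (165 to 1006 of 43376 per array) were dropped, none was saturated, and repeat spots were averaged. The surrogates and the outlier marks bear most on dim probes. The number of arrays limits the precision.

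The log2 ratio of a probe is the mean of its forward and its reverse mean. Correlation between forward and reverse arrays was 0.58 to 0.74. Gene names are those of the files, and the brightest probe stood for its gene. Lower bounds used channel values scaled by Aquantile. The labels give 1 sample per line, so the 2-fold rule carries no p. A 3-way ANOVA, as in the study's methods, and limma were alternatives whose p-values measure array error only. The members, the gene lists and the rules were chosen with earlier results of these data known. All 10 members were described at every probe, listed genes where they were called (up to 8 per list and line), and the 3 genes most like each of the 2 members with the largest ratios. BAX, BBC3, DCN and the other markers were named beside these as reference. HRK, CFLAR, BCLAF1 and the genes of the closing section were named after their values were seen. One gene is not reported here. The 2-fold rule without its background filter, the 3-way ANOVA and limma were also run on simulated log2 ratios. The other steps were not simulated. The normexp, loess and Aquantile steps and the limma tests ran in limma 3.58.1 under R 4.3.3. Everything else, the 3-way ANOVA included, ran in Python 3.11.15 with pandas 2.3.3, numpy 2.4.6 and scipy 1.17.1, and plots used matplotlib 3.10.9.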

Additional observations from a re-analysis of the deposited data

Results flagged for a closer look

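The members, the listed pathway genes, the cell markers and the genes most like a member were searched for those that passed the filter in both lines and had one sign on all arrays of A2780CBN and the opposite sign on all arrays of A2780CBNDXL. Each line is 1 sample, so these differences were not tested. No size limit was set. The share of all genes that meet this sign rule was not counted, so the number of genes listed has no background. Members were searched at every probe and all other genes at their brightest probe only. The values are differences of log2 ratios, A2780CBNDXL minus A2780CBN. Among the other BCL2 family genes they were 2.43 for BMF, 1.17 for BOK, -1.27 for BNIP3L, -0.90 for BECN1, -0.85 for BCL2L13 and -0.75 for MOAP1. Another probe of BCL2L13 was below 0 on all arrays of both lines, at -0.79 ± 0.10 in A2780CBN and -0.63 ± 0.10 in A2780CBNDXL. The dimmest BCL2L13 probe had mixed signs in both lines, as did the dimmest BECN1 probe in A2780CBNDXL. Among the downstream genes they were -7.46 for BIRC3, -1.27 for BIRC2, -0.97 for BIRC6, -0.87 for APAF1, 0.68 for XIAP and 0.66 for CASP2. The other CASP2 probes had mixed signs in A2780CBN. The epithelial marker KRT8 gave 0.55, and TIMP3, whose pattern is like that of PMAIP1, gave 5.10. The dimmer KRT8 probe did not differ in sign, with -0.29 in A2780CBN and -0.25 in A2780CBNDXL. For BIRC3 the dim channel of either comparison stayed at background on all arrays. None of the 10 members is among these genes. PMAIP1 had opposite signs too, but its signals in A2780CBN were below background.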

How the results depend on the processing

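The calls of BID and PMAIP1 in A2780CBNDXL were made under all but one of the alternatives, and no member was called in A2780CBN under any. In A2780CBNDXL 1 of 8 members (BID) was called with both channels required above background, since the control channel of PMAIP1 is dim. Under that rule 1962 of 15611 genes were called. With a 1.5-fold limit 4 of 9 members (BCL2L1, MCL1, BID, PMAIP1) were called, beside 5699 of 17116 genes. Between the lines 1 of 7 members differed, beside 2675 of 16131 genes. On slide 1 alone 2 of 8 members did (BID, BCL2L11), beside 2886 of 17308 genes. Over the mean of probes 2 of 7 did (BCL2, BID), beside 2734 of 16659. Without a filter on dim probes 2 of 9 did (BID, PMAIP1), beside 3916 of 28766. With any probe allowed, chosen after seeing the data, 2 of 7 did (BCL2, BID), beside 3048 of 16659. Leaving out each array in turn gave 0 members in A2780CBN, 2 in A2780CBNDXL and 1 to 2 between the lines. The 2 were without array 4, where BCL2L11 joined BID. Over all genes the counts were 2283 to 2330, 2899 to 3189 and 2730 to 2893 in that order. Over all genes, normexp with an offset of 50 and loess gave 604, 1172 and 1224 calls in A2780CBN, A2780CBNDXL and between the lines in place of 2253, 2893 and 2675. A 1.5-fold limit gave 4860, 5699 and 5256, and a 3-fold limit 1121, 1467 and 1401. The cause of the normexp difference was not tested. The 3-way ANOVA and limma with a dye term or with slide as a block called BID and PMAIP1 and no other member at these limits. No called value changed sign. Signal over background, with a median of 2.28 to 3.52 per channel, limits what can be said of BIK, of PMAIP1 in A2780CBN and of the dim BCL2A1 and BCL2L11 probes.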

Other observations

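HRK, a BH3-only protein, showed the same kind of split as BCL2 between its probes, and is given here after its values were seen. In A2780CBNDXL its dimmer probe gave log2 ratios of -4.90, -5.62, -3.98 and -4.45, a mean of -4.74 ± 0.70, with 8.95 to 30.7 in the line, above background on 1 array, and 267 to 485 in the control. The brighter probe, which stands for the gene, gave 0.49 ± 0.37. In A2780CBN the dimmer and the brighter probe gave 0.28 ± 0.61 and 0.13 ± 0.07.

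Several genes stopped short of the limit with the same sign on all 4 arrays. In A2780CBNDXL the BH3-only gene BAD gave 0.97 ± 0.24, ENDOG, a mitochondrial nuclease, 0.79 ± 0.24 and BIRC2 (cIAP1) -0.78 ± 0.13. In A2780CBN the mitophagy receptor BNIP3L gave 0.93 ± 0.27, BECN1 0.75 ± 0.21 and the effector BOK -0.92 ± 0.19. These genes were chosen after their values were seen.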
